A study of Homo sapiens with 2 samples.

Results

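Chromosomes 4, 13 and 18 are the autosomes with the fewest protein-coding genes per megabase, and they carried 1061 of the 9228 autosomal peaks of active YAP in MCF10A cells, or 11.5%. The members are all peaks whose chromosome is 4, 13 or 18 in the authors' peak list, with 554 peaks on chromosome 4, 286 on chromosome 13 and 221 on chromosome 18. The whole list held 9393 peaks, of which 165 were on chromosome X and were not compared. The other 19 autosomes, with 8167 peaks, serve as the comparison.

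The study immunoprecipitated Flag-tagged YAP-5SA on Flag-M2 beads from formaldehyde-fixed MCF10A cells, and sequenced 1 such ChIP library and 1 input DNA library of the same line, grown in the same medium with horse serum, EGF, insulin, hydrocortisone and cholera toxin. MCF10A is a human mammary epithelial line that the labels call non-transformed in one field and a breast cancer line in another. In the 5SA mutant the LATS target serines of YAP are changed to alanine, so that the protein escapes Hippo inhibition. The labels give no vector, clone, time of expression or cells without the transgene, so the list describes an overexpressed, tagged mutant and not endogenous YAP.

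YAP is a transcriptional co-activator without a DNA-binding domain of its own. It reaches chromatin mainly through the TEAD transcription factors, often at enhancers that lie far from the start of the gene they act on and that also bind AP-1 factors. Large parts of gene-poor chromosomes are intergenic or occupied by a few very long genes, so they offer few promoters per megabase. How binding is distributed on them therefore bears on how closely YAP sites follow genes.

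There is no replicate, so nothing below has a replicate check and no test between samples was possible. The read depth behind the list is unknown. Peaks are not replicates, and the 95% intervals given with shares (Wilson), medians (exact, from ranks) and density ratios (exact binomial) cover counting error only. They treat peaks as independent and are too narrow where peaks cluster. Neither number nor height was corrected for DNA copy number, and its part in any difference between chromosomes was not tested.

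The label of gene-poor chromosomes held. Protein-coding genes of the RefSeq table for GRCh38, counted by chromosome, gave 3.72 genes per Mb on chromosome 18, 3.85 on chromosome 13 and 4.15 on chromosome 4. These were the lowest 3 of the 22 autosomes. The next was chromosome 8 with 5.09, and the highest was chromosome 19 with 27.7. Lengths are those spanned by the peaks of each chromosome in hg19 less the longest peak-free stretch, so no coordinate was carried between the builds.

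Peaks were sparser on these chromosomes, but much less so than genes. The chromosomes were chosen as low in genes, so the larger shortfall of genes was largely set by the choice. There were 2.99 peaks per Mb on chromosome 4, 3.04 on chromosome 18 and 3.26 on chromosome 13, which rank 3, 4 and 5 from the bottom among 22 autosomes. Chromosomes 16, with 2.45, and 7, with 2.93, lay below all of them, although chromosome 16 had 11.8 genes per Mb. On chromosome 13 the stretch left out of the length, 6.46 Mb, lay within the long arm. Counting it would lower that chromosome's densities and its ratios below. Pooled, the 3 chromosomes had 3.07 peaks per Mb against 3.65 on the other autosomes, a ratio of 0.84 (95% interval 0.79 to 0.90). The mean over single chromosomes was 3.10 ± 0.14 (SD, n = 3 chromosomes) against 3.75 ± 0.77 (SD, n = 19 chromosomes), so the 3 values lay within 1 SD of the mean of the others. Without chromosomes 1, 5, 8, 10 and 20, which were set aside with earlier results of this list known, the ratio was 0.90 (0.84 to 0.96). These were not in every case the richest chromosomes. Chromosome 10 had 3.29 peaks per Mb and 8.15% of its peaks at a height of 40 or more, while chromosome 22, with 15.7%, was kept.

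Set against genes, the order turned round. Peaks per gene divides by the very number for which these chromosomes were chosen as low. High values were thus largely set by the choice and are given as descriptions. The 3 chromosomes held 7.20% of the autosomal protein-coding genes, 13.4% of the peak-spanned length and 11.5% of the peaks. They had 77.1 peaks per 100 protein-coding genes, against 46.0 on the other autosomes, a ratio of 1.67 (1.57 to 1.78). Chromosome 13 had 84.6 peaks per 100 genes, the most of any autosome, followed by chromosome 5 with 83.6, chromosome 18 with 81.9 and chromosome 4 with 72.0. The gene-dense chromosomes 17, 19 and 22 together had 4.03 peaks per Mb but only 20.8 peaks per 100 genes. With all annotated genes in place of protein-coding ones, pseudogenes and non-coding RNAs included, the ratio of peaks per gene fell to 1.24 (1.17 to 1.33). Over the 22 autosomes, genes per Mb ranged 7.46-fold and peaks per Mb 2.48-fold. The rank correlation of the 2 densities was 0.52 (Spearman, n = 22 chromosomes, which share 1 library), and 0.39 over the 19 other autosomes.

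**Figure D1:**
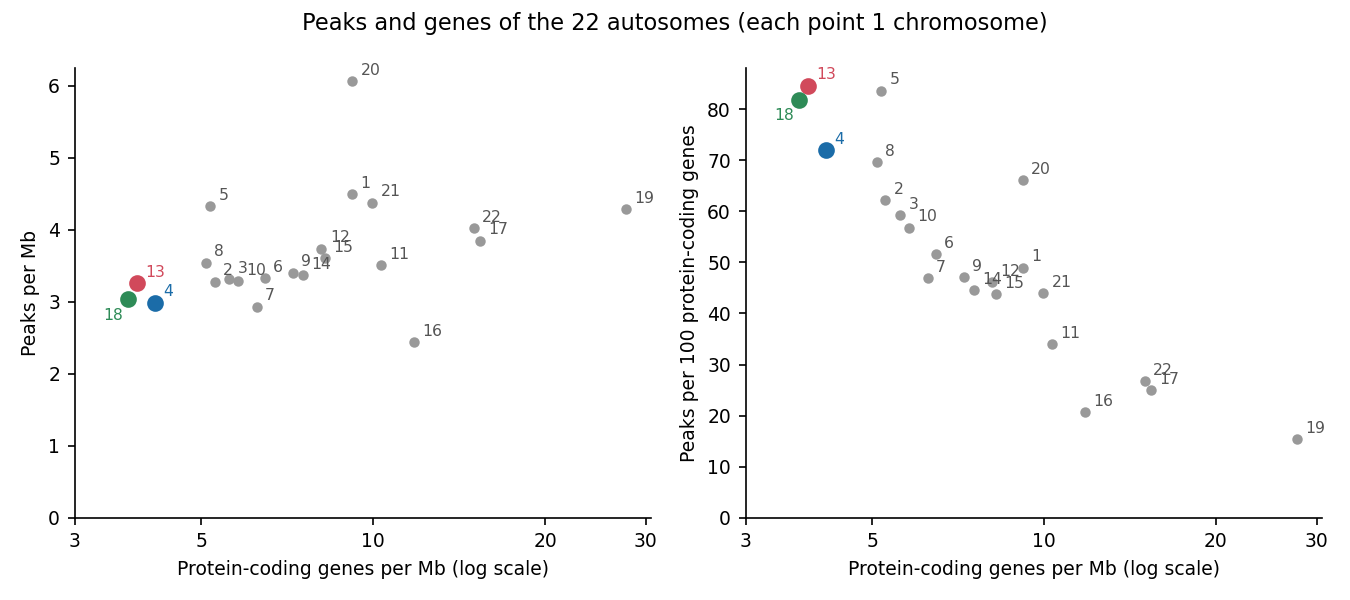
Each point is 1 autosome, placed by protein-coding genes per Mb (log axis) and, on the left, by peaks per Mb or, on the right, by peaks per 100 protein-coding genes; chromosomes 4, 13 and 18 are coloured. The 3 coloured points lie farthest left, at about the peak density of chromosomes 2, 3 and 7, and near the top on the right, where chromosome 5 lies between chromosomes 13 and 18.

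The shortfall of peaks was proportionally larger at heights of 30 or more. The members had 0.65 peaks per Mb of that height against 1.00 elsewhere, and 2.42 against 2.65 at 29 or less. The height is the authors' score at the summit, a whole number whose unit is not stated, and it serves only to rank peaks within this list. All 3 chromosomes had a median height of 23, against 24 (95% interval 24 to 24) on the other autosomes, and 11 of the 19 others had a higher median. Mean heights were 24.7 ± 8.80 (SD over 554 peaks) on chromosome 4, 24.2 ± 8.23 (SD over 286 peaks) on chromosome 13 and 25.02 ± 9.67 (SD over 221 peaks) on chromosome 18. Heights ran from 9 to 68 on chromosome 4, from 12 to 59 on chromosome 13 and from 10 to 71 on chromosome 18.

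Divided by height, the lowest peaks were about as dense as elsewhere. For heights of 9 to 18 the members had 0.74 peaks per Mb against 0.77, a ratio of 0.96 (0.84 to 1.10), and chromosomes 13 and 18 lay above 1 while chromosome 4 lay at 0.85. For heights of 19 to 23 the ratio was 0.90 (0.80 to 1.02), and for 24 to 29 it was 0.88 (0.77 to 1.00). For heights of 30 to 39 it was 0.65 (0.54 to 0.76), with 0.44 peaks per Mb against 0.68, and for 40 and more it was 0.66 (0.51 to 0.84). Below 30 the members thus came close to the density of the other autosomes (ratio 0.91, 0.85 to 0.98), and from 30 upward they lay well under it (ratio 0.65, 0.56 to 0.75).

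The lower density from a height of 30 upward was found on each chromosome, to different degrees. Chromosome 4 had 0.61 peaks of height 30 or more per Mb, chromosome 13 had 0.65 and chromosome 18 had 0.76, against a median of 0.96 and a range of 0.60 to 2.43 over the other 19 autosomes. In that order they ranked 2, 3 and 7 from the bottom of the 22. For lower peaks, of height 29 or less, chromosome 13 had a ratio of 0.98 (0.86 to 1.12). Chromosome 18 was low in the class from 24 to 29, at a ratio of 0.68 (0.49 to 0.91), where chromosomes 4 and 13 were at 0.92 and 0.95. The contrast was smaller against fewer chromosomes: without chromosomes 1, 5, 8, 10 and 20 the ratio for heights of 30 or more was 0.75 (0.65 to 0.87), while that for 29 or less was 0.95 (0.88 to 1.03). On chromosome 18 the former was then 0.88 (0.66 to 1.15), an interval that includes 1.

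**Figure D2:**
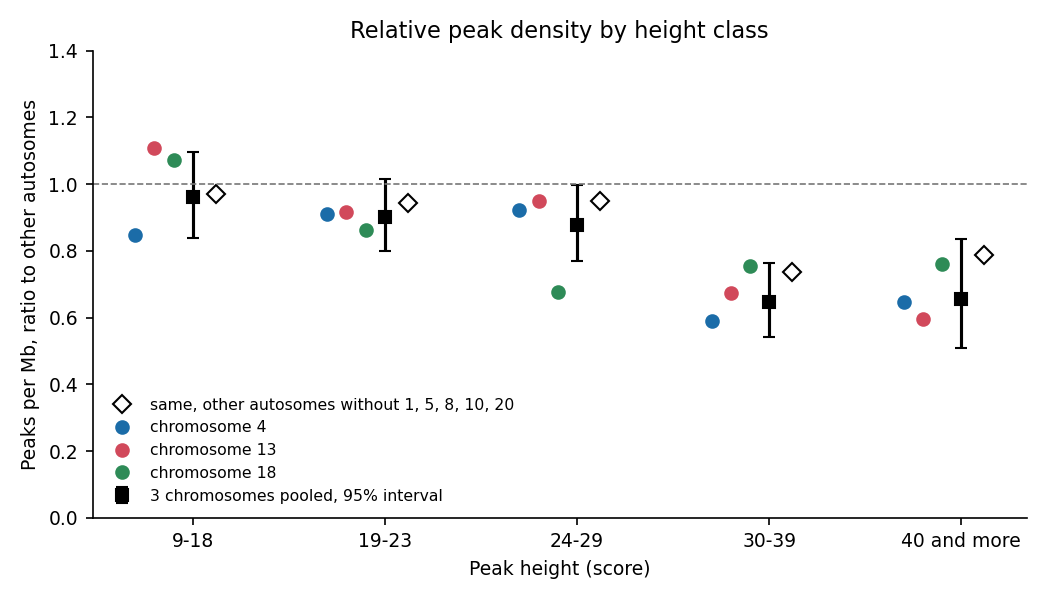
Peaks per Mb of chromosomes 4, 13 and 18 divided by those of the other 19 autosomes, in 5 classes of peak height; squares are the 3 chromosomes pooled with 95% binomial intervals, circles single chromosomes, and diamonds the pooled ratio without chromosomes 1, 5, 8, 10 and 20. The pooled ratio is 0.96 in the lowest class and 0.65 and 0.66 in the 2 highest.

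As shares of peaks, 225 of 1061 members had a height of 30 or more, or 21.2% (95% interval 18.9 to 23.8), where the background over all autosomal peaks was 26.7%. The share on the other autosomes was 27.4%, a difference of -6.20 percentage points (-8.75 to -3.46). At 40 or more there were 74 members, or 6.97% (5.59 to 8.67), against a background of 8.69% and a share of 8.91% on the other autosomes, a difference of -1.94 points (-3.46 to -0.14). Chromosome 13 had the lowest such share of the 22 autosomes, with 17 of 286 peaks (5.94%, 3.74 to 9.31), chromosome 4 had 39 of 554 (7.04%) and chromosome 18 had 18 of 221 (8.14%). The intervals of the 3 chromosomes overlap each other and the background. Without chromosomes 1, 5, 8, 10 and 20 the difference at 40 or more was -1.03 points with an interval from -2.62 to 0.81, so that a difference at this height was not resolved against the remaining 14 autosomes. Nor was it resolved among peaks with no other summit within 50 kb, at -1.29 points (-3.18 to 1.09), or among peaks higher than the median, at -2.15 points (-5.66 to 1.88).

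At the very top the counts were small. There were 23 members of height 50 or more, 2.17% (1.45 to 3.23) against 2.90% on the other autosomes, and 9 of height 60 or more, 0.85% (0.45 to 1.60) against 0.96%. None of the 9 was on chromosome 13. No member was among the 17 tallest autosomal peaks, a cut set by the tallest member, which ranked 18. Members made up 11.5% of autosomal peaks, so few would be looked for among 17, and this count shows no lack.

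The tallest member lay on chromosome 18, at chr18:44125946-44127269 in hg19, with a height of 71. It was also among the widest, at 1324 bp, and stood 91.5 kb from the nearest other summit, with 7 further peaks within 500 kb. The next on chromosome 18 were chr18:71983816-71984631, with a height of 61, chr18:39618788-39619466 with 60, chr18:34999056-34999733 with 58 and chr18:49686878-49687455 with 54. Those of heights 61 and 54 had no other peak within 500 kb, while that of height 58 had a neighbour 4.42 kb away.

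On chromosome 4 the tallest peak was chr4:183995617-183996376, with a height of 68 and its nearest neighbour 24.1 kb away. Heights of 65 were reached at chr4:87154624-87155338 and chr4:157933788-157934582, the former 197 kb and the latter 13.8 kb from the nearest summit. Heights of 64 were reached at chr4:91649116-91649610, an interval of only 495 bp, and at chr4:102875067-102875725, which stood alone within 500 kb. The tallest peaks of chromosome 4 were thus scattered over its long arm, and none of these 5 belonged to a close group. In the order named, they had 5, 2, 4, 3 and 0 other peaks within 500 kb.

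On chromosome 13 most of the tallest peaks had several others within 500 kb, but only the tallest belonged to a close group. The tallest, chr13:21635301-21636067 with a height of 59, had a neighbour at 8.26 kb and was the first of a group of 4. The second, chr13:109909053-109909938 with a height of 57, had 14 other peaks within 500 kb, and the third, chr13:73847827-73848372 with a height of 55, had 10. Then came chr13:97656617-97657203 with a height of 51 and 9 such neighbours, chr13:91097323-91097887 with a height of 50 and 6, and chr13:44146606-44148014 with a height of 50 and 1. The last was the widest peak of the chromosome, at 1409 bp. The peaks were named by their height, so these neighbour counts describe them and support no comparison.

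**Figure D3:**
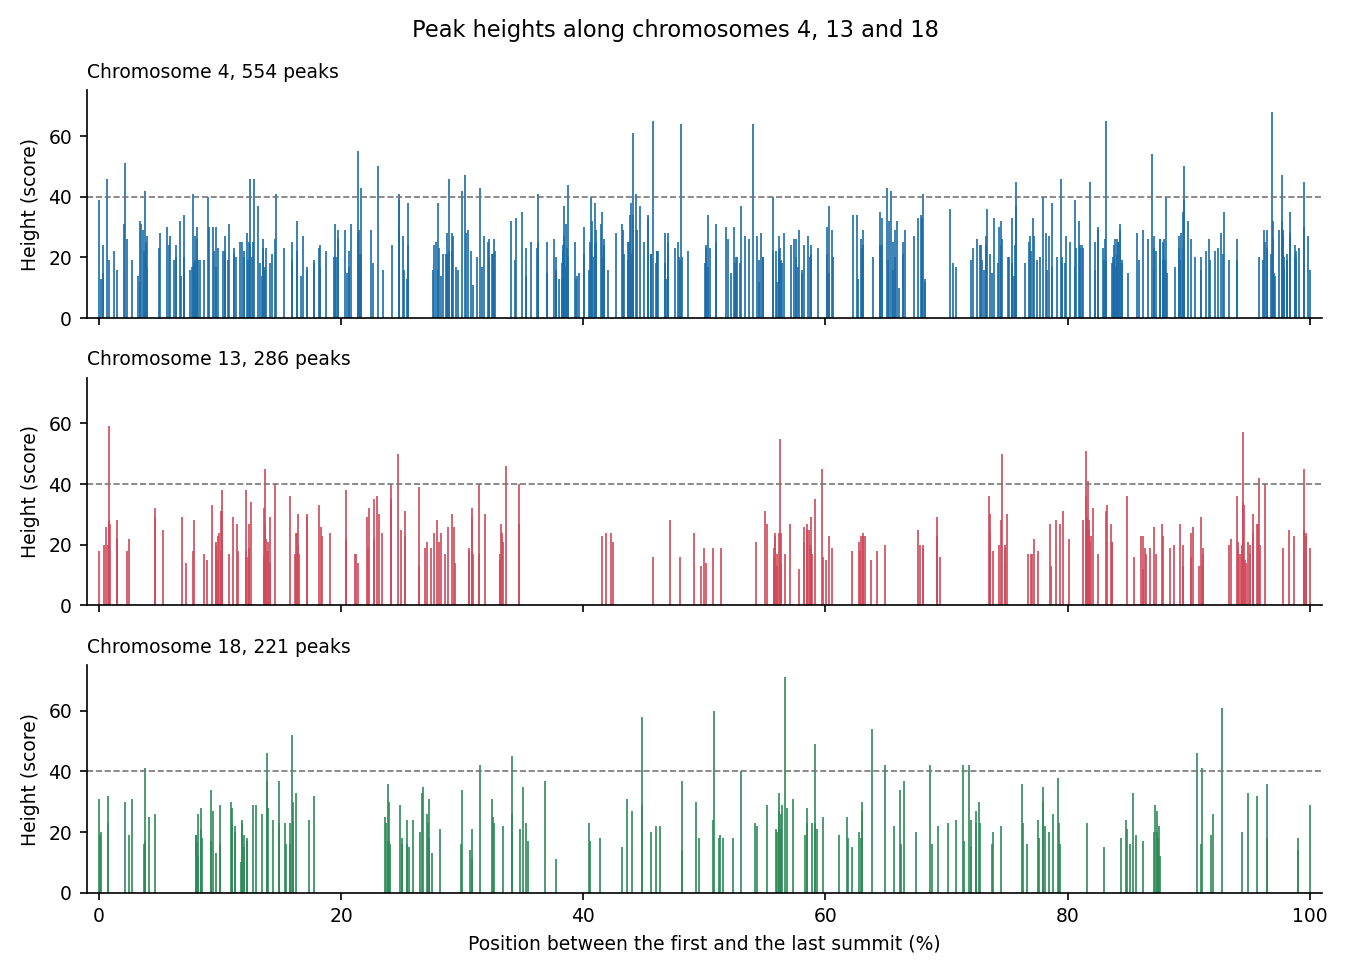
Each vertical line is 1 peak of chromosome 4, 13 or 18, drawn at its position as a percentage of the distance between the first and last summit, with its height (authors' score, no unit) on the vertical axis; the dashed line marks a height of 40. The tallest lines reach 68, 59 and 71, and chromosome 13 shows the longest stretch without peaks.

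Peaks of these chromosomes were also slightly narrower. The median width was 577 bp (95% interval 554 to 612) on chromosome 18, 581 bp (565 to 600) on chromosome 13 and 594.5 bp (581 to 610) on chromosome 4, which rank 1, 2 and 5 from the bottom of the 22 autosomes. Pooled, it was 587 bp (578 to 598) against 614 bp (611 to 618) on the other autosomes, a difference of -27 bp. The gene-dense chromosomes 17, 19 and 22 had a median of 655 bp (640 to 671). Over the 22 autosomes, median width followed genes per Mb with a rank correlation of 0.67 and peaks per Mb with one of 0.72, both given as descriptions of chromosomes that share 1 library.

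Width was also compared within classes of height, because from a height of 19 upward taller peaks were wider. The lowest class was wider than the next one in both sets. Members had the lower median in all 5 classes: 581 against 612.5 bp for heights of 9 to 18, 563 against 580 bp for 19 to 23, 582.5 against 609.5 bp for 24 to 29, 631 against 644 bp for 30 to 39, and 655.5 against 690 bp for 40 and more. The members' interval excluded the others' median in the lowest class only, where it ran from 557 to 605 bp. Over all heights, the difference was -19 bp when chromosomes 1, 5, 8, 10 and 20 were left out. The grid on which summits were reported is 32 bp, and 79.5% of the members' summits fell on its multiples, against 80.5% elsewhere.

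Wide peaks were not clearly fewer. An interval of 900 bp or more was found for 78 members, or 7.35% (5.93 to 9.08), where the background was 8.53%, and the difference to the other autosomes was -1.33 points (-2.88 to 0.50). The widest members measured 1471 bp, at chr18:46149046-46150516 with a height of only 21, and 1463 bp, at chr4:24873807-24875269 with a height of 46. In all, members covered 657 kb, or 1899 bp per Mb against 2360 bp per Mb elsewhere.

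**Figure D4:**
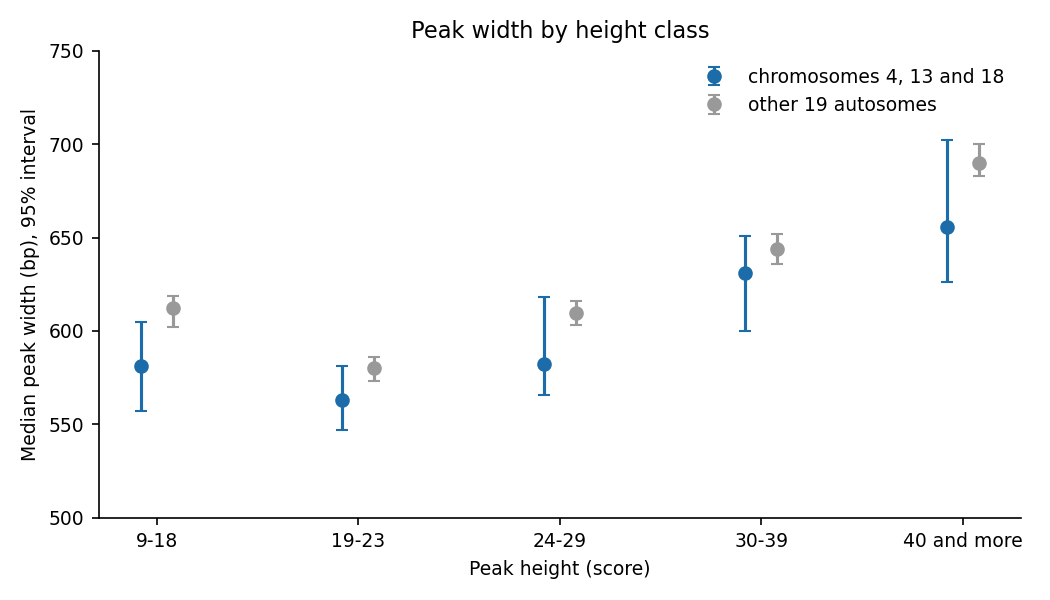
Median peak width in bp (points, with exact 95% intervals) in 5 classes of peak height, for chromosomes 4, 13 and 18 and for the other 19 autosomes; the vertical axis starts at 500 bp. The members' median lies below that of the other autosomes in every class, by 13 to 34.5 bp.

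Members were less often found in close company. Another summit lay within 10 kb of 163 members, or 15.4% (13.3 to 17.7), where the background was 19.7%, and the share on the other autosomes was 20.3%, a difference of -4.91 points (-7.14 to -2.46). It was 12.2% (8.53 to 17.2) on chromosome 18, the lowest of the 22 autosomes, 15.2% (12.4 to 18.4) on chromosome 4 and 18.2% (14.1 to 23.1) on chromosome 13. The difference was -4.08 points (-6.40 to -1.55) without chromosomes 1, 5, 8, 10 and 20.

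At 50 kb the difference was smaller. Another summit within that distance was found for 44.6% of members (41.6 to 47.6), where the background was 48.1%. Chromosome 13 had a share of 50.3% (44.6 to 56.1), chromosome 4 one of 42.2% (38.2 to 46.4) and chromosome 18 one of 43.0% (36.6 to 49.6), against 48.5% on the other autosomes, and the 3 intervals overlap. The pooled difference was -3.93 points (-7.09 to -0.74), and -1.50 points (-4.77 to 1.79) without chromosomes 1, 5, 8, 10 and 20. The median distance between neighbouring summits was 197 kb on chromosome 4, the longest of the 22 autosomes, 181 kb on chromosome 18 and 153 kb on chromosome 13, against 130 kb on the other autosomes pooled. Peaks with no other summit within 500 kb made up 7.22% of chromosome 4, 7.24% of chromosome 18 and 4.20% of chromosome 13, against 4.08% elsewhere.

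**Figure D5:**
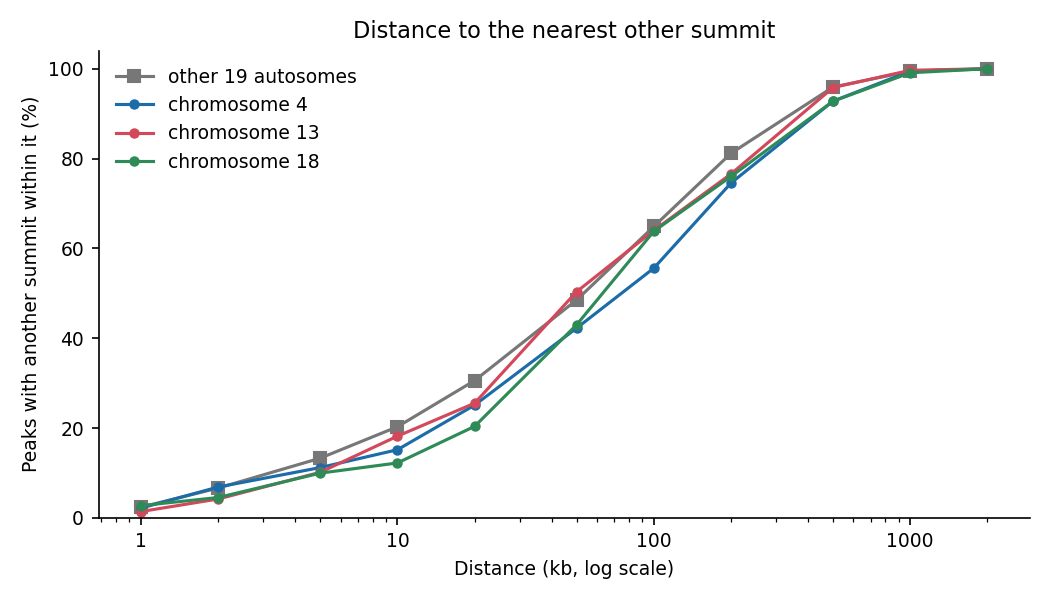
Percentage of peaks that have another summit within the distance on the horizontal axis (kb, log scale), for chromosomes 4, 13 and 18 and the other 19 autosomes. The 3 coloured lines run below the grey one at 10 and 20 kb, and at 50 kb chromosome 13 reaches 50.3% against 48.5%.

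Joining intervals at most 12500 bp apart gave 84 groups of 2 or more with 188 members, or 17.7% (15.5 to 20.1), against 24.01% on the other autosomes. Of these 84 groups, 16 held 3 or more peaks, a proportion similar to the 171 of 871 groups on the other autosomes. None held more than 4, where the largest group of the other autosomes held 7, but among many more groups. On chromosome 4 a group of 4 low peaks lay within 4.78 kb, at chr4:73071492-73076272, with heights of 18, 13, 22 and 24. The other group of 4 there, chr4:79473430-79490946, had heights of 20, 21, 23 and 24. On chromosome 13 the group at chr13:21635301-21654557 had heights of 59, 28, 25 and 27, so that 1 tall peak stood beside 3 ordinary ones, and that at chr13:30415544-30436635 had heights of 31, 18, 16 and 38. The largest groups of chromosome 18 held 3 peaks, at chr18:11849696-11860358, chr18:12730053-12749233 and chr18:43839966-43854804. In the second of these a peak of height 52 stood beside peaks of 30 and 23.

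The heights of grouped and single peaks differed little over the 3 chromosomes together. Grouped members had a median height of 23, the same as single ones, and 7.98% (4.89 to 12.7) of them reached 40 against 6.76% (5.28 to 8.62) of single members. On chromosome 18 the medians were 27 over 33 grouped peaks and 23 over 188 single ones, with 12.1% (4.82 to 27.3) and 7.45% (4.49 to 12.11) at 40 or more, and on chromosome 4 the medians were 22 and 23, with 6.93% and 7.06%. Elsewhere the medians were 25 and 24, with 10.7% (9.42 to 12.2) and 8.35% (7.68 to 9.06) at 40 or more. Of the 74 tall members, 10 had a neighbour within 10 kb, or 13.5% (7.51 to 23.1), against 24.7% (21.7 to 27.99) of the 728 tall peaks elsewhere.

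Along chromosomes 4 and 18, peak numbers varied less from window to window than on most autosomes, though they were not even. Inner windows of 5 Mb held 3 to 25 peaks on chromosome 4 and 8 to 27 on chromosome 18. The 68 windows of 5 Mb inside the 3 chromosomes, leaving out each chromosome's first and last window, held a median of 14 peaks (quartiles 11 and 18) and at most 33, against a median of 16 (11 and 22) and at most 50 in the 455 windows of the other autosomes. Windows with 25 or more peaks made up 4.41% of the former and 18.2% of the latter, while windows with 10 or fewer made up 20.6% and 23.96%. The variance of the window count divided by its mean was 1.58 on chromosome 4 and 1.79 on chromosome 18, which rank 2 and 3 from the bottom of the 22 autosomes, and 4.22 on chromosome 13, against a median of 3.95 and a range of 0.83 to 7.502 over the other 19. Windows of 1 Mb without any peak made up 11.1% on chromosome 4, 14.1% on chromosome 18 and 22.9% on chromosome 13, against 17.7% elsewhere. Chromosome 13 thus alternated between filled and empty regions more than chromosomes 4 and 18 did, by both measures. Unlike the densities, the window counts include the longest peak-free stretch of every chromosome. Among the other autosomes, chromosomes 9 and 16 had 36.2% and 43.3% of 1 Mb windows empty, and variances over the mean of 7.06 and 7.15. The part of such stretches in these comparisons was not tested.

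The window with most peaks had a median height below 23 on each chromosome. On chromosome 4 it was 185 to 190 Mb, at the end of the long arm, with 29 peaks of median height 21, 5 of them at 30 or more. On chromosome 13 it was 30 to 35 Mb, with 33 peaks of median height 21, of which 8 reached 30 (24.2%, 12.8 to 41.02) and 28 had a neighbour within 50 kb. On chromosome 18 it was 5 to 10 Mb, with 27 peaks whose heights ran from 10 to 34 with a median of 19, the lowest of that chromosome's windows with 10 or more peaks. Only 2 of these 27 reached 30, or 7.41% (2.06 to 23.4).

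The windows of highest median height held 11 to 21 peaks. From 70 to 75 Mb on chromosome 18 there were 11 peaks with heights of 16 to 61 and a median of 32, the highest of the members' windows with 10 or more peaks, and 6 of the 11 reached 30 (54.5%, 28.01 to 78.7). On chromosome 13 the highest median was 28, over 21 peaks from 95 to 100 Mb. It was 28 on chromosome 4 as well, over 13 peaks from 40 to 45 Mb and 17 peaks from 80 to 85 Mb. The lowest of chromosome 4 was 19, over 11 peaks from 30 to 35 Mb. On chromosome 13 a median of 20 was shared by 4 windows. In 1 of them, 80 to 85 Mb, no peak of 13 exceeded a height of 25. These windows were picked for their values, so they are descriptions.

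Windows of like peak number were also compared, and the members' share of taller peaks had an interval apart from that of the other autosomes only where peaks were many. In windows of 10 or fewer peaks, 17.2% (11.4 to 25.1) of 116 members had a height of 30 or more, against 22.9% (19.97 to 26.03) of peaks elsewhere. In windows of 11 to 15 peaks, the shares were 21.4% (17.6 to 25.9) of 373 members and 23.4% (21.3 to 25.7). In windows of 16 to 20 peaks the shares were 22.6% (18.3 to 27.6) and 25.3% (23.4 to 27.3). In windows of 21 or more peaks they were 20.97% (16.5 to 26.3) of 267 members and 30.7% (29.3 to 32.1) of 4048 peaks. Without chromosomes 1, 5, 8, 10 and 20 the last share was 27.1% (25.2 to 29.02), which overlaps the members' interval, and that in windows of 16 to 20 peaks was 25.9% (23.7 to 28.2). Overlap of separate intervals does not decide whether shares differ, and no interval of the difference was computed here. Whether the gap in the fullest windows held against the remaining 14 autosomes was thus left undecided.

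Close neighbours in the same windows followed no single direction. A summit within 10 kb was found for 13.8% (8.67 to 21.2) of members in windows of 10 or fewer peaks, against 13.2% elsewhere. In windows of 11 to 15 peaks it was found for 9.12% (6.60 to 12.47) of members, against 14.3% (12.6 to 16.2) elsewhere, the one class of the 4 whose intervals did not overlap. In windows of 16 to 20 peaks the shares were 14.8% (11.2 to 19.2) and 16.5%, and in those of 21 or more they were 25.5% (20.6 to 31.0) and 25.5% (24.2 to 26.9). Within 50 kb the fullest windows went the other way, with 65.5% (59.7 to 71.0) of members against 57.4% (55.9 to 58.9) elsewhere, and windows of 10 or fewer had 37.1% (28.8 to 46.1) against 31.2% (27.9 to 34.6). The lower overall share of members with a close neighbour was therefore not found in windows of every peak number. The windows of 21 or more held 25.2% of members and 49.6% of other autosomal peaks.

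The 2 sides of the longest peak-free stretch differed in density on chromosomes 13 and 18. On chromosome 18 this stretch ran from 14.1 to 18.7 Mb, around the centromere. Before it 60 peaks lay at 4.38 per Mb, and beyond it 161 peaks at 2.73 per Mb, while the median height was 23 on both sides. Tall peaks, of height 40 or more, went the other way in share, with 3 of 60 (5.00%, 1.71 to 13.7) before and 15 of 161 (9.32%, 5.73 to 14.8) beyond, though the intervals overlap widely. On chromosome 4 the stretch from 49.0 to 52.8 Mb, again around the centromere, separated 141 peaks at 2.92 per Mb from 413 peaks at 3.01 per Mb, both with a median height of 23.

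Chromosome 13 is acrocentric, with a short arm of repeated sequence, and its first summit lay at 20.9 Mb. Its longest peak-free stretch, from 53.6 to 60.02 Mb, was therefore within the long arm, with 124 peaks at 3.79 per Mb before it and 162 peaks at 2.94 per Mb beyond it. Chromosome 13 was also free of peaks from 86.3 to 90.1 Mb and from 60.8 to 64.0 Mb, which leaves only a few peaks between 53.6 and 64.0 Mb. Chromosome 4 lacked peaks from 129.7 to 133.6 Mb and from 178.4 to 181.9 Mb. In all, 18 of the 125 peak-free stretches of over 2 Mb on the 22 autosomes lay here. There were 7 on chromosome 4, 7 on chromosome 13 and 4 on chromosome 18. That is near the share of the 3 chromosomes in the peak-spanned length, 13.4%. The mappability of the peak-free stretches was not examined, so they do not show that YAP-5SA was absent there.

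Intervals at most 200 bp apart were rare on the autosomes as a whole. Counting them as 1 removed 78 of the 9228 autosomal peaks, 6 of them from the 6 pairs among the members. The closest pair, chr4:39707859-39708384 and chr4:39708393-39708967, was separated by 8 bp and had heights of 22 and 17. All 12 peaks of these pairs had heights between 14 and 29, so none was tall. Whether such a pair is 1 site or 2 was not examined.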

How the data were processed

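The data are the 1 peak file of the ChIP library; the input was not analysed here. Per the submitters' processing notes, BWA 0.6.1, MACS and hg19 were used. How MACS was run (version, threshold, duplicate filtering, use of the input) is not given in the sources used here. The file has, per the file headers, a summit track with the score deposited by the authors and an interval track, which were joined by line order (100% of summits lay in their interval). Interval starts were made 1-based.

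The members and lists were chosen with earlier results of these data known. Peaks named are the 5 tallest (with ties) and the widest of each chromosome, its 5 Mb window with most peaks and its largest groups of intervals at most 12500 bp apart; windows of highest or lowest median height, pairs within 200 bp, height classes and classes of windows were added after the values were seen. Location relative to genes, motifs and gene lists were planned but need sequence and gene models of build hg19, not used here, so peaks carry no gene names. Genes were counted by chromosome from RefSeq (GRCh38.p14). No test was run. Functions were tested on simulated data. Python 3.11.15, numpy 2.4.6, pandas 2.3.3, scipy 1.17.1 and matplotlib 3.10.9 were used.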

Additional observations from a re-analysis of the deposited data

How the results depend on the processing

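No paired analysis was possible because ChIP and input were each sequenced once, and no replicate could be left out. None of the 16 alternatives run reversed a direction, and 5 moved a value beyond its counting interval. The density ratio to the other autosomes, 0.84, was 0.74 for peaks higher than the median, 0.90 without chromosomes 1, 5, 8, 10 and 20, 0.86 with the full span as the length and 0.84 with intervals at most 200 bp apart counted as 1. The difference in the share of tall peaks, -1.94 points at a height of 40, was -6.20 points at 30. Its interval included 0 under the other 3 alternatives: -1.29 points for peaks with no other summit within 50 kb, -2.15 points for peaks higher than the median and -1.03 points without chromosomes 1, 5, 8, 10 and 20. The difference in the share of grouped peaks, -6.29 points with intervals joined at 12500 bp, was -3.06 points at 5 kb and -6.50 points at 25 kb. The ratio of peaks per gene, 1.67, was 1.24 with all genes. The cause of these shifts was not tested. The alternatives for location and motifs were not run. Those for median width and for neighbours within 10 and 50 kb were chosen after seeing the data. Without chromosomes 1, 5, 8, 10 and 20 the difference at 50 kb shrank from -3.93 to -1.50 points (95% interval -4.77 to 1.79).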
